A study of Mus musculus with 2 samples.

Results

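The proteasome is the protease that degrades ubiquitin-tagged proteins. Its genes were taken as those with a mouse symbol starting with Psma, Psmb, Psmc, Psmd, Psme, Psmf or Psmg and a digit, read from the platform annotation of probe sets with exactly 1 gene. This gave 49 genes with 103 probe sets, of 18193 genes named on the array. The brightest probe set stood for each gene. The immunoproteasome genes Psmb8, Psmb9, Psmb10 and Psme1 were set against the 45 other genes. Psme2, the fifth immunoproteasome gene of the rule, had only a probe set assigned to it together with Psme2b and was not analysed here. The symbol rule also found Psmc3ip and Psme3ip1, whose products bind proteasome proteins but are not subunits.

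Splenic CD4 T cells of C57BL/6 mice, wild type per the labels, were activated with immobilized anti-TCR and anti-CD28 antibodies for 2 days under CD103+ Th1 or Th1 conditions, then cultured for 3 more days. CD103+ Th1 medium held 3 ng/ml of IL-4, 10 ng/ml of IFN-γ and 3 ng/ml of TGF-β. Th1 medium held 1 ng/ml of IL-12 and 1 µg/ml of the anti-IL-4 antibody 11B11. Each condition was measured on 1 Affymetrix array, and the number of mice was not given in the sources used here. No spread between cultures could therefore be estimated, no test was possible, and "higher" or "lower" compares these arrays alone.

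The 20S core of the proteasome is a barrel of α rings around β rings. The constitutive catalytic subunits are β5, β1 and β2, encoded by Psmb5, Psmb6 and Psmb7. Interferon-γ is known to induce the replacement subunits β5i, β1i and β2i, encoded by Psmb8, Psmb9 and Psmb10, which lymphocytes also carry without added interferon. The 19S regulator binds, unfolds and feeds ubiquitinated proteins into the core through a ring of ATPases (Psmc genes) and non-ATPase subunits (Psmd genes). PA28αβ, made of the Psme1 and Psme2 products, is another interferon-induced cap, and the immunoproteasome is known for supplying peptides to MHC class I.

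Signals are in arbitrary linear units, and their medians were 78.0 in CD103+ Th1 against 78.8 in Th1. Since the table has no detection calls, the median of both arrays together, 78.5, served as a floor. A gene was counted as measured when its signal passed the floor on at least 1 array, which held for 11162 genes. The integrin gene Itgae, which encodes CD103, had a signal of 13248 in CD103+ Th1 against 82.1 in Th1. Of the T cell markers, 5 of 5 passed the floor on both arrays, with summed signals of 48102 in CD103+ Th1 against 40836 in Th1. Both CD8 T cell markers passed it on both arrays too, with sums of 3647 in CD103+ Th1 against 1163 in Th1. Of the B cell markers with a probe set, 1 of 3 passed in CD103+ Th1 against 0 of 3 in Th1 (sums of 277 and 156). That 1 was Cd79b, with 244 in CD103+ Th1 against 75.8 in Th1, while Cd79a and Ms4a1 were under the floor on both. The myeloid and dendritic counts were 3 of 6 in CD103+ Th1 against 2 of 6 in Th1 (sums of 1087 and 626), with Lyz2, Itgam and Itgax under the floor on both. The higher sum came from the MHC class II gene H2-Aa, with 798 in CD103+ Th1 against 58.5 in Th1. Csf1r and Cd68 were lower, with 118 and 104 in CD103+ Th1 against 187 and 233 in Th1. The NK marker Ncr1 was under the floor on both. The part of other cells in the results below was not tested, and fewer cells of a type and less RNA per cell cannot be told apart in such bulk RNA.

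Of the 49 proteasome genes, 47 were measured, all above the floor on both arrays. The thymus-specific Psmb11 and the testis-specific Psma8 lay under it on both. The measured immunoproteasome genes had higher signals in CD103+ Th1 than in Th1 on 4 of 4 genes, while 36 of the 43 other measured genes were lower. The median log2 ratio, CD103+ Th1 over Th1, was 0.33 for the immunoproteasome genes and -0.24 for the others, a difference of 0.57, or 1.49-fold. All measured genes had a median of -0.03 and lay below 0 in 52.6%. Genes with signals of 1000 or more on both arrays, where most proteasome genes lie, were below 0 in 54.1%, against 33 of 40 of the other proteasome genes in that range. None of the 47 reached 2-fold in either direction, against 9.93% of measured genes. At 1.5-fold, 1 proteasome gene was higher (12.4% of measured genes) and 3 were lower (13.4%). Of the 3947 genes with signals of 1000 or more on both arrays, 114 were at least 2-fold higher and 70 lower. At 1.5-fold, 359 of these bright genes were higher and 363 lower, smaller shares than among all measured genes. The differences were thus mostly small shifts in opposite directions for the immunoproteasome and for the rest.

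**Figure D1:**
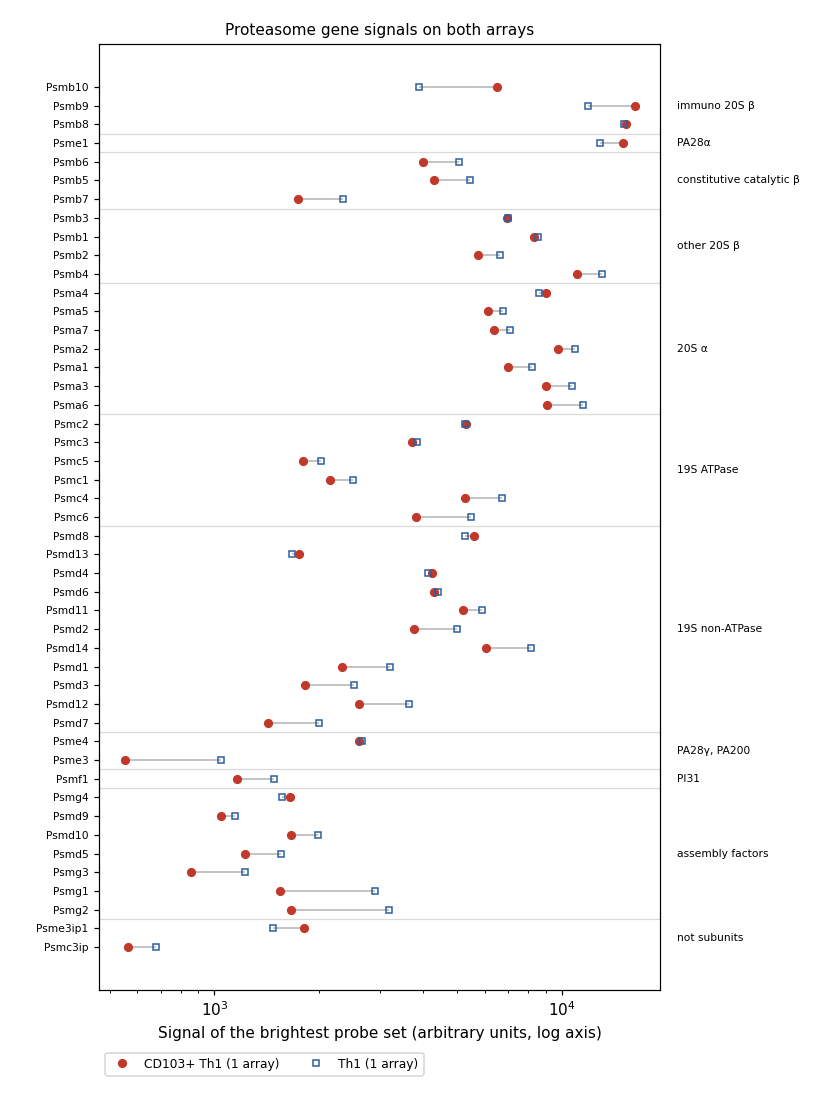
Signal of the brightest probe set of each of the 47 measured proteasome genes (log axis, arbitrary units), in CD103+ Th1 (filled circles) and Th1 (open squares), 1 array each, ordered by role. In the immunoproteasome rows at the top the filled circle lies right of the square, though almost on it for Psmb8. In most rows below the circle lies left of the square.

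Among the immunoproteasome catalytic subunits, Psmb10 differed most. Psmb10, for β2i, had a signal of 6526 in CD103+ Th1 against 3895 in Th1, 1.68-fold higher, and was the 1 proteasome gene at least 1.5-fold higher. Psmb9, for β1i, had 16200.0 in CD103+ Th1 against 11919 in Th1, 1.36-fold higher. Psmb8, for β5i, had 15275 in CD103+ Th1 against 15104 in Th1, a log2 ratio of 0.02, so it was nearly level. A dimmer Psmb8 probe set, of the kind marked for possible cross-hybridisation, had 1109 in CD103+ Th1 against 883 in Th1, with a log2 ratio of 0.33. Psme1, for PA28α, had 14991 in CD103+ Th1 against 12919 in Th1, 1.16-fold higher. The 3 interferon-inducible catalytic genes therefore did not share 1 size of difference, although 5 of 5 measured immunoproteasome probe sets were above 0. Of all 11162 measured genes 5293 were above 0, and no such count was made over all probe sets.

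The constitutive counterparts were each lower in CD103+ Th1. Psmb5 had a signal of 4275.5 in CD103+ Th1 against 5442.5 in Th1, 1.27-fold lower. Psmb6 had 3992 in CD103+ Th1 against 5068 in Th1, also 1.27-fold lower. Psmb7 had 1739 in CD103+ Th1 against 2349 in Th1, 1.35-fold lower. Each has 1 probe set, so no second probe set bears on these values. Set against the gene it replaces, Psmb10 differed from Psmb7 by 1.18 on the log2 scale (2.26-fold). The same difference of log2 ratios was 0.79 for Psmb9 over Psmb6 (1.73-fold) and 0.36 for Psmb8 over Psmb5 (1.29-fold). Each of the 3 pairs thus leaned towards the inducible gene in CD103+ Th1, by unequal amounts. These are differences between ratios and do not say which gene of a pair was more abundant.

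**Figure D2:**
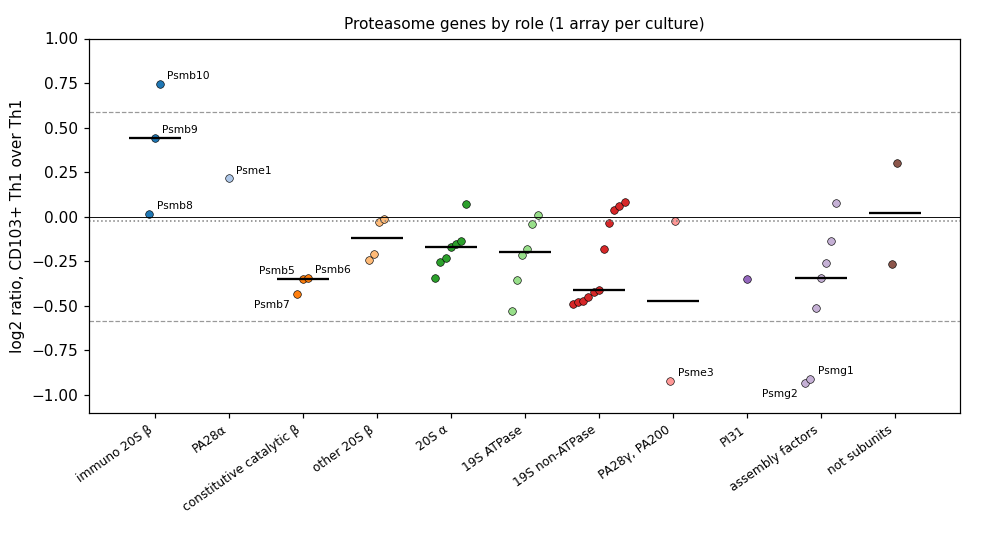
Log2 ratio of CD103+ Th1 over Th1 for each measured proteasome gene, grouped by role. Bars are group medians where a group has more than 1 gene, dashed lines mark 1.5-fold and the dotted line the median of all measured genes (-0.03). The immunoproteasome β genes and Psme1 lie above 0, the constitutive catalytic genes between -0.43 and -0.34, and Psme3, Psmg1 and Psmg2 lowest.

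The promoters of the 4 measured immunoproteasome genes are shown with that of Psmb5, the constitutive gene of the pair with the smallest difference, since inducible and constitutive genes differed in direction. Each window runs from 250 bases before to 50 after the RefSeq start site, on GRCm38.p6. Capitals mark matches, on either strand, to the motif letters TTCNNNGAA (a form of the interferon-γ activated site), GAAANNGAA (a form of the interferon-stimulated response element), GGGACTTTC (a κB form) or TGACNNNGC (a form of the antioxidant response element).
Psmb10, chr8:105938343-105938642, minus strand: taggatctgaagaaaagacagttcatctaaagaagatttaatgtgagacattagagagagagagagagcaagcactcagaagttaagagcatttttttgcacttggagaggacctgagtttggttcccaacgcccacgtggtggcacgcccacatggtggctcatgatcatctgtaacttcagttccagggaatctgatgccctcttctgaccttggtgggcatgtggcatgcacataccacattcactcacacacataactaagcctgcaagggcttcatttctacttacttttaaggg
Psmb9, chr17:34187281-34187580, minus strand: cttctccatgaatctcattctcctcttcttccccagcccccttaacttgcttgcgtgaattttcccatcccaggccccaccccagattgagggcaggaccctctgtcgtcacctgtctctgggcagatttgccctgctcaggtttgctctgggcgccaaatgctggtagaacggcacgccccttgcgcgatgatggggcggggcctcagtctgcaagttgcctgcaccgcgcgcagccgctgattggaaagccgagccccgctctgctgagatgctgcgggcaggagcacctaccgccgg
Psmb8, chr17:34197945-34198244, plus strand: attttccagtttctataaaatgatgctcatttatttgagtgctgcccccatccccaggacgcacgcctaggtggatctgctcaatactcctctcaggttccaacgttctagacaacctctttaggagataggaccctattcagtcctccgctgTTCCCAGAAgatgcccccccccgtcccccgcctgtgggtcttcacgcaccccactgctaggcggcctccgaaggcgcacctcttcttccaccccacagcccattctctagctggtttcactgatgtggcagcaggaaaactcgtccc
Psme1, chr14:55578244-55578543, plus strand: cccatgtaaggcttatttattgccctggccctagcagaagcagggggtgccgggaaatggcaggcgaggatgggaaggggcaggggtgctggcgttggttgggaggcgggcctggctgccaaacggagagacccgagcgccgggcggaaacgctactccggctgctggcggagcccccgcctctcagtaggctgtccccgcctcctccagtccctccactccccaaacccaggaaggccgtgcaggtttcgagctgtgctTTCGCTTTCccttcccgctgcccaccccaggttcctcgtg
Psmb5, chr14:54617946-54618245, minus strand: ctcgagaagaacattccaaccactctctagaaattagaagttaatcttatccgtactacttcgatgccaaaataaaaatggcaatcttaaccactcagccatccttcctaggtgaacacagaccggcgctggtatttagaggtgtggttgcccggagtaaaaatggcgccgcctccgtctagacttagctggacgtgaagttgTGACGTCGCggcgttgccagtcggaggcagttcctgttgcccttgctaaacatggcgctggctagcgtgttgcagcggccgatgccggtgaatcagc

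Psmb8, with the smallest difference of the 4 on the brightest probe sets, held TTCCCAGAA at -97, counted from the start site as 1. Psme1 held TTCGCTTTC, which is GAAANNGAA on the other strand, at 11. The Psmb9 and Psmb10 windows held none of the 4 motifs, which says only that these letters are absent from these 300 bases. Psmb5 held TGACGTCGC at -47. TTCNNNGAA was found in 3 of the 41 proteasome genes with a window (7.32%) and in 9.55% of all 27025 genes with one. GAAANNGAA was found in 7 of 41 (17.1%), against 9.76% of all genes. Of these 7, Psme1 alone is an immunoproteasome gene. TGACNNNGC was found in 6 of 41 (14.6%), against 14.0% of all, and GGGACTTTC in 0 of 41, against 0.403%.

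Psmb9 lies back to back with the peptide transporter gene Tap1 in the MHC, and their windows on opposite strands share 275 bases. In the order of the gene table the 4 neighbours there are Psmb9, Tap1, Psmb8 and Tap2. Tap1 had a signal of 9513 in CD103+ Th1 against 5697 in Th1, 1.67-fold higher, a larger difference than that of Psmb9. Tap2, for its transporter partner, had 3344 in CD103+ Th1 against 2204 in Th1, 1.52-fold higher. The log2 ratios along this stretch were 0.44, 0.74, 0.02 and 0.60, so the nearly level Psmb8 signal stood between higher neighbours. The dimmer Psmb8 probe set, at 0.33, was also below Tap1 and Tap2, but the size of the gap depends on the probe set.

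The remaining 20S core genes were close to level or slightly lower. In the α ring, which forms the gate of the barrel, 6 of 7 genes were below 0, against 52.6% of all measured genes. The median log2 ratio of the α ring genes was -0.17. Psma4 was the highest, with a signal of 9037 in CD103+ Th1 against 8613 in Th1 (log2 ratio 0.07). Psma6 was the lowest, with 9072 in CD103+ Th1 against 11515 in Th1 (-0.34). The non-catalytic β genes Psmb1, Psmb2, Psmb3 and Psmb4 were below 0 on 4 of 4, with a median of -0.12. Psmb3 had 6937 in CD103+ Th1 against 6996 in Th1 (-0.01), and Psmb4 had 11065 in CD103+ Th1 against 13086 in Th1 (-0.24). The α and non-catalytic β subunits, which both kinds of core share, thus had ratios between those of the inducible and the constitutive catalytic genes at their medians.

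In the 19S regulator, the ATPase genes were below 0 on 5 of 6 (52.6% of all measured genes), with a median of -0.20. Psmc6 was the lowest of these, with 3798 in CD103+ Th1 against 5489 in Th1, 1.45-fold lower, and its 3 probe sets ran from -0.58 to -0.28. Psmc2 was level on its brightest probe set, with 5289.5 in CD103+ Th1 against 5255 in Th1 (log2 ratio 0.01). That probe set is of the kind marked for possible cross-hybridisation, and the other measured Psmc2 probe set gave -0.21. Of the 11 non-ATPase genes, 8 were below 0 and the median was -0.41. These formed a split set on the brightest probe sets. Psmd7, a scaffold of the deubiquitinating module, had 1424 in CD103+ Th1 against 2002 in Th1, 1.41-fold lower. Its dimmer second measured probe set gave a log2 ratio of 0.14. Averaged over measured probe sets, Psmd7 was at -0.17 and Psmd13 at -0.24, so the split depends in part on the probe set. Psmd14, which encodes the deubiquitinase that removes ubiquitin chains at the pore, had 6065 in CD103+ Th1 against 8136 in Th1, 1.34-fold lower. Psmd1, Psmd2, Psmd3 and Psmd12 had log2 ratios from -0.48 to -0.41, alongside these. The other 5 lay between -0.18 and 0.08, with Psmd8 highest at 5574 in CD103+ Th1 against 5273 in Th1. They include Psmd4, which encodes a ubiquitin receptor, at 4229 in CD103+ Th1 against 4125 in Th1 (log2 ratio 0.04).

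The lowest ratios belonged to a PA28 relative and to assembly factors. Psme3, for PA28γ, a nuclear cap that acts largely without ubiquitin, had a signal of 551 in CD103+ Th1 against 1045.5 in Th1, 1.90-fold lower. Its second measured probe set, with 167.5 in CD103+ Th1 against 196 in Th1, gave a log2 ratio of -0.23. Psme1 and Psme3, which encode related caps, therefore lay on opposite sides of 0. Psme4, for the cap PA200, was level at 2612 in CD103+ Th1 against 2662 in Th1.

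Psmg1 and Psmg2 encode PAC1 and PAC2, chaperones that pair with each other to assemble the α ring. Psmg1 had a signal of 1545 in CD103+ Th1 against 2903 in Th1, 1.88-fold lower, on its 1 probe set. Psmg2 had 1658 in CD103+ Th1 against 3174 in Th1, 1.91-fold lower. A second Psmg2 probe set of like brightness had 1681 in CD103+ Th1 against 2414 in Th1 (log2 ratio -0.52), and another, dim one gave -0.07. Psmg3 and Psmg4, for the partners PAC3 and PAC4, did not match each other. Psmg3 had 857 in CD103+ Th1 against 1225 in Th1 (-0.51), with a dim second probe set at 0.65, and Psmg4 had 1652 in CD103+ Th1 against 1567 in Th1 (0.08). Psmd5, Psmd9 and Psmd10, which encode chaperones of the 19S base, had log2 ratios of -0.34, -0.13 and -0.26. Pomp, for the chaperone that starts β ring assembly and favours the immunoproteasome, had 8210 in CD103+ Th1 against 7582 in Th1, a log2 ratio of 0.11. Psmg1 and Psmg2 were thus lower, while Psmg4 and, on its 1 measured probe set, Pomp were slightly higher. Psmf1, for the inhibitor PI31, had 1166 in CD103+ Th1 against 1488 in Th1 (-0.35), but its 2 other measured probe sets gave 0.77 and 0.86, so its direction depends on the probe set. The non-subunit genes were Psmc3ip, with log2 ratio -0.27, and Psme3ip1, with 0.30, the highest of the other genes.

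Several measured probe sets were available for 24 proteasome genes, and in 14 of these they pointed in both directions (Psma1, Psma3, Psma6, Psmb1, Psmc2, Psmd4, Psmd6, Psmd7, Psmd9, Psmd11, Psmd13, Psme4, Psmf1 and Psmg3). In the other 10 they agreed in sign, among them Psmb8, Psmc6, Psme3 and Psmg2. Over all measured probe sets of the other proteasome genes, 61 of 84 were below 0, and 46 of 56 of those with signals of 1000 or more on both arrays. By gene, 52.6% of all measured genes were below 0, and 54.1% of those with signals of 1000 or more on both arrays. Neither these signs nor the agreement between probe sets was counted over all probe sets of the array. Psmd13 had the widest range. Its brightest probe set had 1748 in CD103+ Th1 against 1677 in Th1 (log2 ratio 0.06), and a dim one had 113 in CD103+ Th1 against 280 in Th1 (-1.31). When the probe sets of each gene were averaged, 32 of the 43 other genes were below 0. The count at least 1.5-fold lower was then 1, Psmg1, in place of 3.

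**Figure D3:**
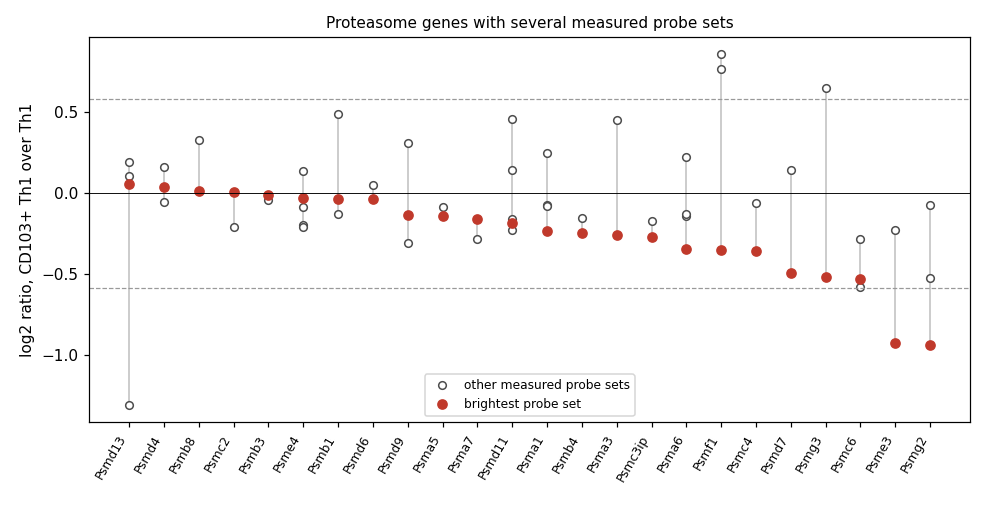
Log2 ratio of CD103+ Th1 over Th1 for every measured probe set of the 24 proteasome genes with several, ordered by the brightest (filled). Open circles are the other probe sets, grey lines span each gene and dashed lines mark 1.5-fold. Psmd13, Psmf1 and Psmg3 have the widest spans across 0, while Psme3 and Psmg2 stay below 0.

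Proteasome partners outside the symbol rule, which include ubiquitin receptors, deubiquitinases and assembly proteins, had a median log2 ratio of -0.27, near the -0.24 of the other proteasome genes. Of 15 measured, 10 were below 0 (52.6% of all measured genes) and 0 reached 1.5-fold in either direction (12.4% higher and 13.4% lower of all measured genes). Usp14, for a deubiquitinase on the 19S particle, had a signal of 1552.5 in CD103+ Th1 against 2203 in Th1, 1.42-fold lower, with other probe sets from -0.84 to 0.17. Txnl1, a thioredoxin-like 19S partner, was 1.41-fold lower, with all 3 of its probe sets below 0. Ube3a and Ubqln4 were 1.39-fold and 1.36-fold lower, but other probe sets reached log2 ratios of 0.36 for Ube3a and -0.01 for Ubqln4. Akirin2, which brings proteasomes into the nucleus, was highest at 4380 in CD103+ Th1 against 3335 in Th1. The E1 and p97 genes were level as a group, with a median of -0.03 over 8 measured and 0 at 1.5-fold. In that list Vcp, for the p97 ATPase that extracts ubiquitinated proteins, had 6216 in CD103+ Th1 against 8323 in Th1 (-0.42), and its other probe set was at 0.28. Nsfl1c, a p97 cofactor gene, was at 0.31, Ufd1 at 0.16 and Uba6, for a ubiquitin-activating enzyme, at -0.16.

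Among 8 measured regulators of proteasome gene expression, the median was 0.12 and 2 were at least 1.5-fold higher (12.4% of all measured genes). Nfe2l1, for the factor that raises proteasome genes when proteasomes are inhibited, had 642 in CD103+ Th1 against 789 in Th1 (log2 ratio -0.30). Ngly1, needed to activate that factor, was at -0.32 and its relative Nfe2l2 at 0.41, with a second Nfe2l2 probe set at -0.40. Mafk, a small MAF partner of both factors, had 598 in CD103+ Th1 against 271 in Th1, 2.21-fold higher, and Syvn1, an ER ubiquitin ligase gene, was 1.56-fold higher.

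Interferon transcription factors, which act on immunoproteasome genes, had larger ratios than those genes. All 6 measured were 1.5-fold higher or more in the CD103+ Th1 culture (12.4% of measured genes), and their median log2 ratio was 1.28. Irf1, a known activator of Psmb8, Psmb9 and Psmb10, had 8668 in CD103+ Th1 against 1966 in Th1, 4.41-fold higher. Irf8 was 3.29-fold higher, with a log2 ratio of 0.72 on a second probe set, and Irf9 was 3.20-fold higher. Nlrc5, the activator of MHC class I genes and Psmb9, had 7181 in CD103+ Th1 against 3899 in Th1, 1.84-fold higher. Of the 16 measured class I supply and loading genes, 5 were 1.5-fold higher or more (12.4% of all measured genes). By that much 1 was lower (13.4% of all measured genes), and the median was 0.10. The count depends on the probe set, since others reached log2 ratios of 1.14 for Erap1 and 0.79 for H2-K1, but 0.18 for Pdia3. Tapbpl had 2388 in CD103+ Th1 against 758 in Th1, 3.15-fold higher, and a log2 ratio of 0.25 on another probe set, and Tapbp, for tapasin, was 1.82-fold higher. Thop1, for a cytosolic peptidase that trims and destroys peptides, had 213 in CD103+ Th1 against 391 in Th1, 1.84-fold lower. Ifng itself had 529 in CD103+ Th1 against 5711 in Th1, while IFN-γ was added to the CD103+ Th1 medium alone. The part of either in these values was not tested.

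Genes of interferon-inducible ubiquitin-like modifiers and their enzymes were divided. Isg15, 1 of the 6 listed, had no probe set assigned to exactly 1 gene and was not analysed here. Of 5 measured, 3 were higher in CD103+ Th1 by 2-fold or more (5.04% of all measured genes), with a median log2 ratio of 1.01. Ube2l6, which conjugates ISG15, had 307 in CD103+ Th1 and lay under the floor in Th1, at least 3.92-fold higher. Uba7, the ISG15-activating enzyme gene, had 2085 in CD103+ Th1 against 967 in Th1, 2.16-fold higher, and Herc6, a ligase for the same modifier in mouse, was 2.01-fold higher. The 4 Herc6 probe sets ran from 0.42 to 1.01 on the log2 scale, so its place among the 3 depends on the probe set. The deconjugase gene Usp18 was level at 1078 in CD103+ Th1 against 1032 in Th1. Ubd, for FAT10, which sends proteins to the proteasome without ubiquitin, lay under the floor in CD103+ Th1 and had 106 in Th1, at least 1.35-fold lower.

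**Figure D4:**
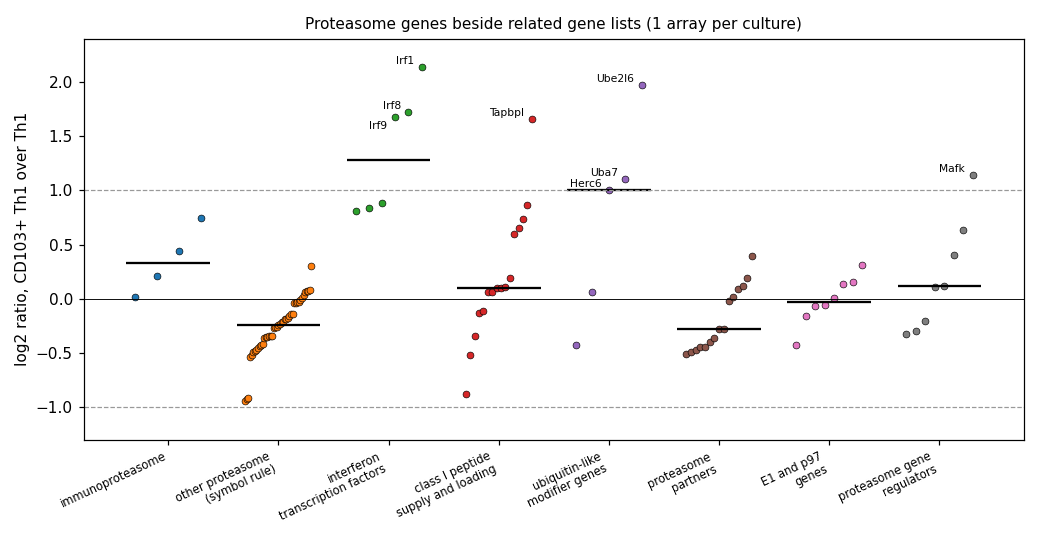
Log2 ratio of CD103+ Th1 over Th1 for the measured genes of the immunoproteasome, the other proteasome genes and 6 related lists. Bars are medians, dashed lines mark 2-fold, named genes lie past it, and the Ube2l6 and Ubd points are bounds on the size. The interferon transcription factors have the highest median, 1.28, against 0.33 for the immunoproteasome and -0.24 for the other proteasome genes.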

How the data were processed

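Total RNA of 2 cultures was hybridised to 1 array each, after biotin labelling per the labels' protocols. The deposited table gives 1 linear signal intensity for each of 45037 probe sets on each array. The submitters' processing notes name GCOS with no version, and its scaling and filters are not given in the sources used here. Both 2% trimmed means were 498, so signals were used as deposited. The number of arrays limits the precision.

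Probe sets with 1 gene symbol (34945) were used, and those with several (932) or none listed (9160) were not. Symbols were updated by gene identifier to GRCm38.p6, where 34741 matched. The probe set with the largest mean log2 signal stood for its gene. Values under the floor were raised to it. Genes under it on both arrays were left without a ratio, and those under it on 1 array gave bounds. No test was possible. Levels of different probe sets were not compared. The log2 ratio is CD103+ Th1 over Th1. It was computed with Python 3.11.15, numpy 2.4.6 and pandas 2.3.3 and tested on simulated data. Promoter windows came from RefSeq, GRCm38.p6. Alternatives covered scaling, the floor, the choice of probe sets and group membership.

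The members and lists were chosen with earlier results of these data known, and no list is independent evidence. The naming rule covered the immunoproteasome and constitutive catalytic genes, and the extremes of each role group. It also covered members at 1.5-fold, with probe sets in both directions or under the floor, the 4 largest absolute ratios of each related list, Pomp and Ubd. Psmd1, Psmd2, Psmd3, Psmd5, Psmd10, Psmd12, Psmd14, Tap2, Nfe2l1, Akirin2 and Usp18 were added after their values were seen.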

Additional observations from a re-analysis of the deposited data

How the results depend on the processing

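With 1 array per group, no replicate could be left out. No paired analysis was possible because each group has 1 sample. The immunoproteasome median stayed above 0 and that of the other genes below 0 under the 8 alternatives for scaling, floor and probe sets, and no gene at 1.5-fold changed sign. The immunoproteasome median was 0.44 with probe sets without suffix letters, which leave out Psmb8, and with the β genes alone, where the difference between the groups was 0.68. With a pseudocount of 21.2 and no floor 1 gene was 2-fold lower, the dim Psmb11, and with probe sets without suffix letters 1 gene, Psmd13. With the mean of all probe sets 1 gene was at least 1.5-fold lower in place of 3. Of 369 single-gene values, 24 moved by over 0.1 on the log2 scale and 15 changed sign, 8 of these with the mean of probe sets. The moves came mostly from the choice of probe sets. With their mean 14 of 47 genes moved, and 7 of 40 with probe sets without suffix letters. Quantile normalization moved 3 of 47, and each other setting for scaling or the floor moved 0. Scaling moved the median of all genes by less than 0.1.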
